A study of Caenorhabditis elegans with 6 samples.

Results

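The regions described here are the 687 intervals on chromosome IV of a combined file of 4511 regions of the nematode Caenorhabditis elegans, from a NanoDam profile of EGL-43, a transcription factor. The rule for them is the chromosome alone, and no measured value decides which region is a member. Attached to them are 514 peaks on chromosome IV from 3 deposited peak lists, 166 in list 1, 179 in list 2 and 169 in list 3. All samples were L3 larvae, kept at 25 degrees and collected 24 h after the first feeding, with about 5000 animals in each. Their food bacteria lack Dam. All animals carried bmdSi244, a single-copy insertion that expresses a GFP nanobody fused to Dam from an anchor cell promoter, which the sample names label lin-29. The 3 control samples (strain DQM986) had bmdSi244 alone. The other 3 samples (strain DQM975) had bmdSi244; egl-43(bmd88), that is, the fusion together with EGL-43 tagged with GFP at its own locus. Each list sets 1 EGL-43::GFP sample against the control sample of the same number, so the background methylation of the fusion is already part of every score. DNA came from whole larvae, and specificity for the anchor cell rests on the promoter of the insertion.

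EGL-43 is a zinc finger protein of the EVI1 family. It is needed in the anchor cell, the gonadal cell that induces the vulva and then breaches the basement membranes between gonad and epidermis. Dam methylates the adenine of GATC sites. When a nanobody brings Dam to a GFP-tagged factor, GATC sites near the bound DNA gain this mark, and DpnI, which cuts only methylated GATC, releases the fragments that are amplified and sequenced. A region therefore marks a stretch between GATC sites near the tagged protein, not a base-pair position of binding. The autosomes of C. elegans have a central part with dense, often essential genes and little recombination, flanked by arms with more repeats and more recombination.

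Positions are counted from 1 and are those of the deposited files. The submitters' processing notes name the build ce10. The gene table used here is of another build, so no gene was assigned to a region, and no sequence of a region was read. The score of a peak is the authors' own value, whose scale (log or linear) is not given in the sources used here. Scores were used to describe peaks within a list, and across lists to rank regions by the lowest of their 3 raw scores. The lists differ in score level, so percentiles of a score within its list are given beside part of the comparisons between lists. Raw scores of different lists are not on a common level. Sequencing depth is unknown, so an absent peak and an under-sampled peak cannot be told apart, and the intervals below cover counting error only.

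List 2 stood apart from the other lists in where its chromosome IV peaks lay. The central 33.3% of the chromosome span, from 5.82 to 11.6 Mb, held 75 of 166 peaks in list 1 (45.2%) and 79 of 169 in list 3 (46.7%), but 54 of 179 in list 2 (30.2%). Left arm and right arm here mean the parts of the span on either side of this centre, equal to it in length. They were not set by recombination or repeats. In peaks per Mb, list 1 had 8.42 on the left arm, 12.9 in the centre and 7.22 on the right arm. List 3 had 7.91, 13.6 and 7.56 in the same order, so its centre was likewise the densest part. List 2 had 10.1, 9.28 and 11.3, and its centre was the sparsest part. The gap was not the same at all scores. In the upper tertile of scores on chromosome IV, 44.6% of 56 peaks of list 1, 11.7% of 60 of list 2 and 36.8% of 57 of list 3 were central. In the middle tertile the shares were 30.9%, 40.7% and 53.6%, with list 2 above list 1, and in the lowest tertile they were 60%, 38.3% and 50%. The plot of list peaks along the span shows the same: the part from 60 to 70% held 27 peaks of list 1, 26 of list 3 and 12 of list 2, whereas the next 10% held 17, 18 and 32. The main results that depend on position are therefore also given without list 2.

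**Figure D1:**
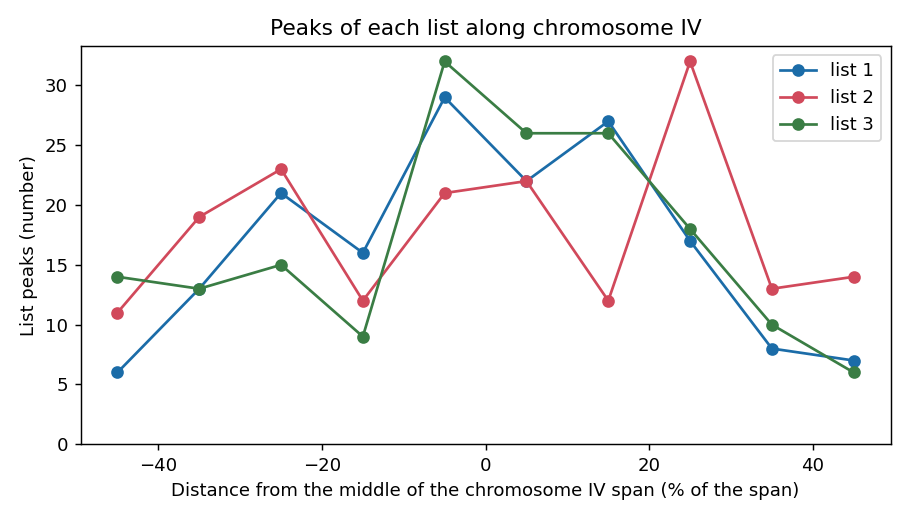
Number of peaks of each list (y axis) in 10 equal parts of the chromosome IV span, placed by their distance from the middle of the span in percent (x axis). Lists 1 and 3 reach 29 and 32 peaks just left of the middle, while list 2 peaks at 32 on the right, between 20 and 30% from the middle.

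Whether a region was found in more than 1 replicate was described first. Of the 687 regions, 28 held peaks of all 3 lists (4.08%, 95% Wilson interval 2.83 to 5.83%), compared with 3.95% of all combined regions. Peaks of at least 2 lists lay in 72 regions (10.5%, interval 8.41 to 13%), below the 12.4% of all combined regions, which is inside this interval. At least 1 list peak lay in 406 regions (59.1%), against 61.3% of all combined regions. The remaining 281 regions (40.9%, interval 37.3 to 44.6%) overlapped no list peak, against 38.7% overall. Replicate support on chromosome IV was thus near that of the whole file, which includes chromosome IV, at these levels. Peaks of exactly 2 lists lay in 44 regions (6.40%, interval 4.81 to 8.49%), against 8.47% of all combined regions. On the other nuclear chromosomes together this share was 8.84%, just above the interval. It was 6.07% on chromosome V, lower than on IV, and from 8.58 to 10.2% on chromosomes I, II, III and X. The low share was thus not particular to chromosome IV. Among regions with 1 list, 102 were from list 1, 120 from list 2 and 112 from list 3. Among regions with exactly 2 lists, 18 held lists 1 and 2, 16 held lists 1 and 3, and 10 held lists 2 and 3, so the last pair shared the fewest.

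Region width rose with support. Regions that no list supported had a median width of 924 bp, against 1148 bp with 1 list, 1804 bp with 2 lists and 2948 bp with all 3. A region spans the peaks in it, so regions with several peaks are wider by construction. All 514 list peaks lay entirely inside a region. In 341 of the 406 regions that a list supported, both ends were those of the outermost list peaks, and 65 (16%) were longer, by a median of 795 bp. In 401 of the 406 no list had more than 1 peak. In the other 5, the highest number of peaks from 1 list was 2. Over all 687 regions, width ran from 63 to 8192 bp with a median of 1117 bp, close to the 1112 bp of the other nuclear chromosomes, and 5.27% of the chromosome span was covered.

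**Figure D2:**
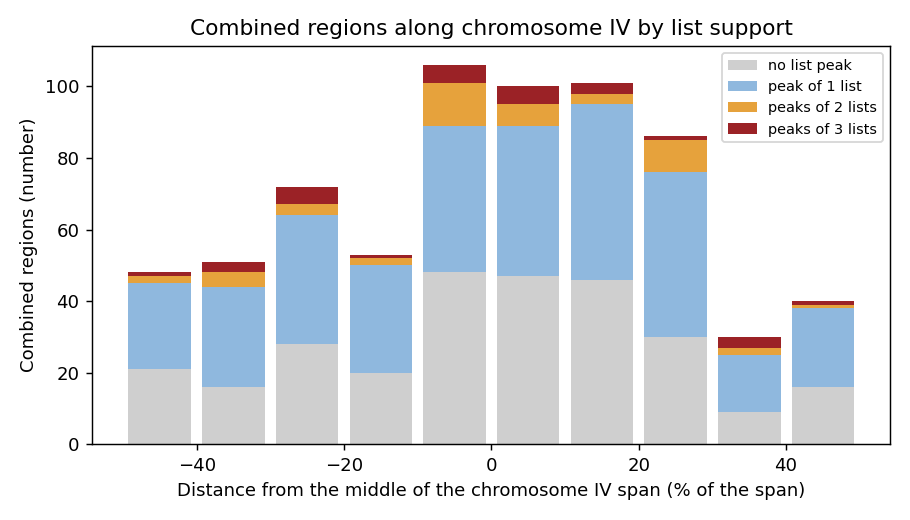
Number of combined regions (y axis) in 10 equal parts of the chromosome IV span, placed by distance from the middle of the span in percent (x axis) and stacked by the number of lists with a peak in the region. The 3 parts from 10% left to 20% right of the middle hold 106, 100 and 101 regions, and the part from 30 to 40% right of it holds 30.

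The share of list peaks found again in another list was 37.3% for list 1 (62 of 166 peaks), 32.4% for list 2 (58 of 179) and 32.5% for list 3 (55 of 169). Over all nuclear chromosomes the shares were 39.5%, 36.2% and 35.2%. The chromosome IV share was lower than that of the other nuclear chromosomes in 3 of 3 lists, by a mean of 3.35 percentage points (34.1 ± 2.82% against 37.5 ± 2.20%, SD, n = 3 lists). The exact two-sided sign-flip permutation test gave p = 0.25, the smallest that 3 lists allow, and 0.5 after adjustment over the 4 differences tested in this way. The differences were -2.54, -4.47 and -3.05 points in lists 1, 2 and 3. Their SD of 1.00 is the spread that applies to this comparison within lists. Between lists, the shares themselves had SDs of 2.82 and 2.20, of the size of the mean difference. The lists are not independent in this measure, since an overlap counts in both. With list 1, 2 or 3 left out, a peak could be found again only in the 1 other remaining list, a narrower measure. The mean difference was then smaller in size, at -0.998, -1.38 and -0.62 points, but it is not directly comparable with that over 3 lists. The cause was not tested.

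By pairs, 46 peaks of list 1 overlapped 46 peaks of list 2, which is 27.7% of the first and 25.7% of the second. Lists 1 and 3 shared 44 of 166 (26.5%) and 42 of 169 peaks (24.9%). Lists 2 and 3 shared 39 of 179 (21.8%) and 38 of 169 peaks (22.5%). Many overlapping peaks ended at the same base: 25 of 46 overlapping pairs of lists 1 and 2 had a common first or last base, 17 of 44 of lists 1 and 3, and 14 of 40 of lists 2 and 3. Identical peaks were few, with 4, 1 and 3 pairs, respectively. Scores of overlapping peaks had a Spearman's rho of 0.20, 0.38 and 0.40 in the 3 pairs of lists, given as a description across peaks of shared lists.

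Peaks found again scored higher and were wider in each list. The median score of recurring against other chromosome IV peaks was 2.49 against 2.34 in list 1, 2.78 against 2.64 in list 2, and 2.27 against 2.00 in list 3. Median widths were 1489 against 1196 bp, 1404 against 1089 bp, and 1652 against 916 bp in the same order. A wider peak has more room to overlap, and the part of width in the difference in scores was not tested. High scores did not ensure recurrence. The highest peak of list 2, from 868166 to 868288, scored 5.06 with a width of 123 bp and had no peak of list 1 or 3 in its region, and the next highest of list 2, from 1308353 to 1309525 (score 4.20) and from 16776222 to 16777548 (4.02), had none either. By contrast, the 3 highest of list 1 all lay in regions with peaks of all 3 lists. These peaks were singled out after their values were seen.

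The 28 regions with peaks of all 3 lists are the best replicated on the chromosome, and the 15 with the highest lowest-of-3 score are given here by position, from left to right. Of all 28, 10 lay on the left arm, 12 in the centre and 6 on the right arm. Of the 44 regions with peaks of both list 1 and list 3, whatever list 2 holds, 12, 23 and 9 lay there in the same order. Scores over the 28 ran from 1.74 to 4.13 with a median of 2.71 in list 1, from 2.15 to 3.86 with a median of 3.11 in list 2, and from 1.65 to 3.40 with a median of 2.58 in list 3. The base pairs common to peaks of all 3 lists are called the shared core below.

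On the left arm, the region from 1709509 to 1712525 scored 3.33, 2.62 and 3.19 in lists 1, 2 and 3, with a shared core of 1600 bp (1709991 to 1711590). List 2 was the low value there. The region from 2995748 to 2998524 scored 2.79, 3.86 and 2.65, with a core of 1297 bp (2996993 to 2998289), and here list 2 was high. Only 11827 bp further right, the region from 3010352 to 3015085 scored 3.36, 3.30 and 2.58, and all 3 peaks began at the same base, 3011153, with a core of 2597 bp, the longest of the 28. These neighbours were the second closest pair among the 28 regions.

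Further along the left arm, the region from 3231291 to 3235545 scored 2.57, 2.56 and 3.40. Its list 3 peak, the highest-scoring of that list on the chromosome, ran over the whole 4255 bp, while the shared core was 859 bp (3233032 to 3233890). The region from 4401080 to 4407050 scored 2.43, 3.12 and 2.56, and held 5 peaks, of which the larger peaks of lists 2 and 3 were identical (4401969 to 4407050). Its list 1 peak lay inside these and set the core of 1397 bp. The region from 5009795 to 5011917 scored 3.07, 3.35 and 2.85, with a core of 1218 bp (5010700 to 5011917) that was the whole peak of lists 1 and 3.

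In the centre, the region from 7233560 to 7236633 scored 2.91, 2.47 and 2.58, with a core of 1066 bp (7233759 to 7234824) equal to the list 2 peak. Its scores stood at percentile 84.3, 30.7 and 80.1 of the lists, so list 2 was below its own median. The region from 8435625 to 8437820 scored 3.87, 3.13 and 2.39, and its 3 peaks began at the same base, with identical extents of 1061 bp in lists 1 and 2. Its raw scores had the widest spread of the 15 (1.48), but as percentiles of the lists they spanned 29.05 points, and the widest span was 59.7 points, in the region from 3231291 to 3235545. The region from 8634936 to 8637388 scored 2.82, 2.85 and 2.62, with a core of 1635 bp (8635191 to 8636825).

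The region from 9667799 to 9673934 scored 2.86, 2.63 and 2.81 and was the second widest region of the chromosome (6136 bp). List 1 had separate peaks at either end of it, and the list 3 peak bridged them. As percentiles of lists 1, 2 and 3, the scores of this region were 82.2, 44.2 and 88.9. The region from 10025281 to 10027497 scored 2.94, 2.61 and 2.97, with a core of 1059 bp (10026265 to 10027323). These scores stood at percentile 85.4, 41.8 and 92.6 of the lists. The highest-ranked region of the chromosome, from 11523323 to 11526377, scored 3.34, 3.55 and 3.15. Its shared core of 2436 bp (11523620 to 11526055) made up 79.7% of the region, and its scores stood at percentile 95.2, 92.9 and 95.1 of the 3 lists.

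On the right arm, the region from 11866233 to 11871613 scored 3.04, 3.24 and 3.19, with similar scores but unequal widths of 5381, 1096 and 2343 bp. The region from 14081277 to 14083794 scored 4.13, 3.39 and 2.89, held the highest-scoring list 1 peak of the chromosome, and had the same first base in all 3 lists. The peaks of lists 2 and 3 there were identical (14081277 to 14083377). The region from 16494361 to 16495426 scored 2.51, 3.28 and 2.61. It was the narrowest of the 28 (1066 bp), its peaks shared their first base, and its core of 933 bp made up 87.5% of it.

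**Figure D3:**
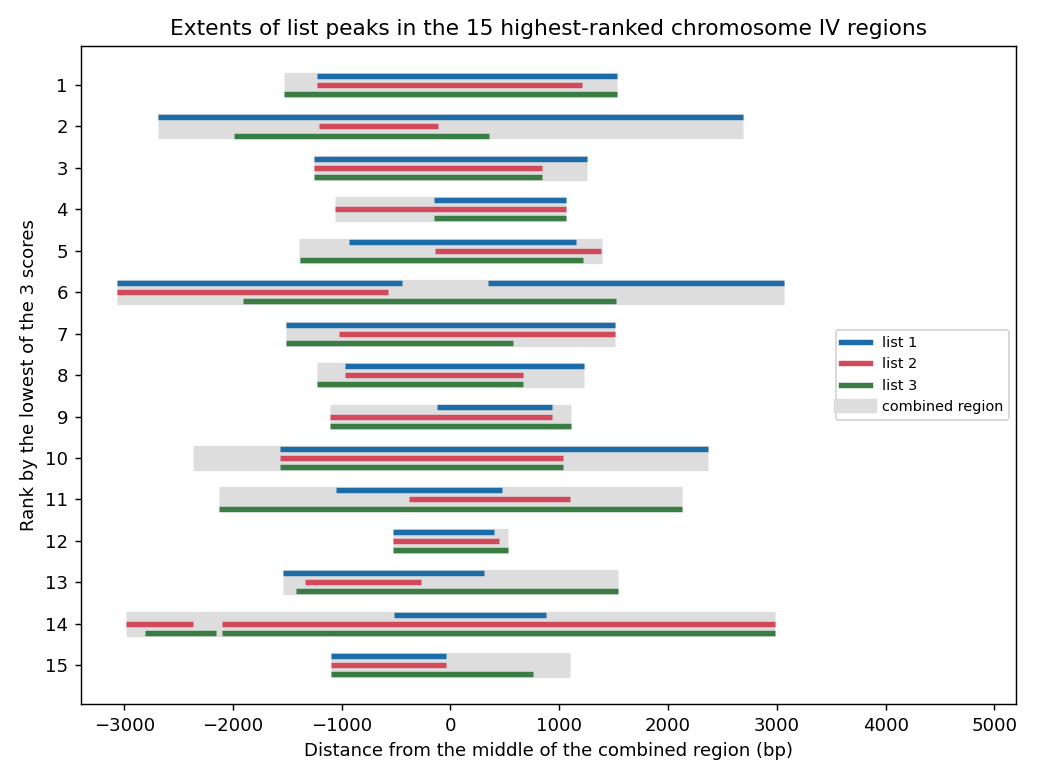
Extents of the peaks of lists 1, 2 and 3 (coloured lines) in the 15 highest-ranked regions (grey bars), as distance in bp from the middle of each region (x axis), ordered by rank (y axis). Each of the 15 has a stretch covered by all 3 lists, from 859 to 2597 bp long, and in 4 of them the left ends of the 3 lists coincide.

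**Figure D4:**
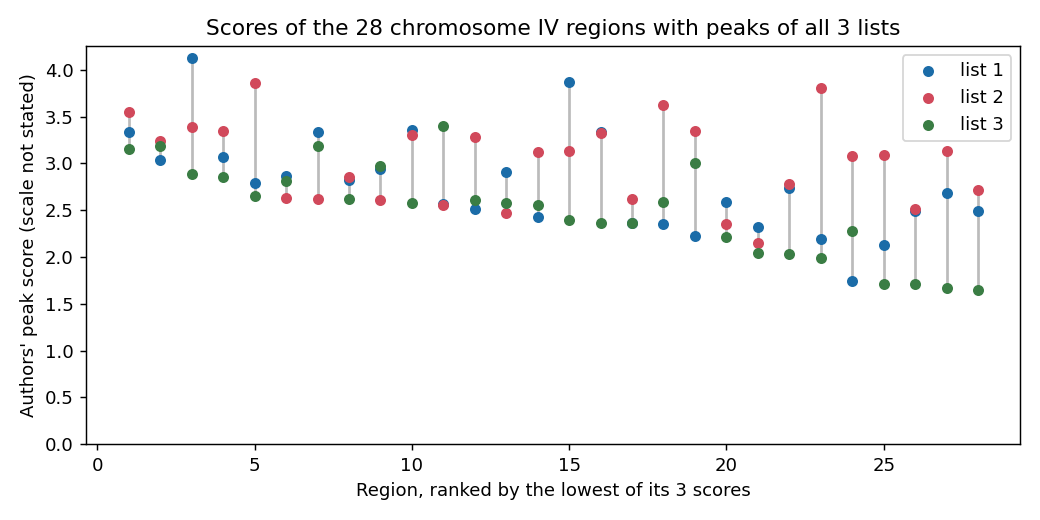
Authors' peak scores (y axis) of the 28 regions with peaks of all 3 lists, ranked by the lowest of the 3 scores (x axis), with 1 point per list (the highest where a list has several peaks) and a grey line from the lowest to the highest. The lowest score falls from 3.15 to 1.65, and list 2 (red), whose chromosome IV peaks have the highest median score (2.67), is the highest point in 17 of the 28. By percentile within its list it is the highest in 7 and the lowest in 13.

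The other 13 regions had lowest scores from 1.65 to 2.36. A shared core was present in 25 of the 28 regions, with a median of 1081 bp over all 28. In 3 regions no base was common to the 3 lists, because the peak of 1 list overlapped both others, which did not overlap each other. These were the regions from 3743752 to 3746179, from 4701027 to 4702781 and from 14609503 to 14614944, and a further 2 had cores under 50 bp: 44 bp in the region from 5700526 to 5703283 and 1 bp in the region from 8005743 to 8009788. Counting the first 3 as found in all 3 lists rests on the combined interval rather than on a common stretch. For the other 2 the common stretch is very short. All 5 were named for their cores after these were seen. Of the 28 regions, 12 had scores above the median of each list, and list 3, whose median score is the lowest, gave the lowest raw score in 17, in 1 of them tied. By percentile within the lists, the lowest value came from list 2 in 13 regions, from list 3 in 8 and from list 1 in 7.

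The highest lowest-of-3 score on chromosome IV, 3.15, was exceeded by 11 of the 150 regions with all 3 lists on the other nuclear chromosomes, whose highest was 4.30. The median was 2.41 on chromosome IV and 2.35 elsewhere. Median peak scores on chromosome IV were 2.37, 2.67 and 2.07 in lists 1, 2 and 3, against 2.34, 2.69 and 2.11 on the other nuclear chromosomes. The mean difference was -0.01 ± 0.04 (SD, n = 3 lists), and it was above 0 in 1 list and below in 2 (exact two-sided sign-flip permutation test, p = 0.75, adjusted 1). No difference in peak score between chromosome IV and the rest was detected.

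Chromosome IV had fewer peaks for its length than chromosomes I, II and III in each list. It held 9.51, 10.3 and 9.68 peaks per Mb in lists 1, 2 and 3, a mean of 9.82 ± 0.39 (SD, n = 3), whereas the other nuclear chromosomes together held 12.6, 11.8 and 12.6, a mean of 12.4 ± 0.45. The 2 sets of values did not overlap, and chromosome IV was lower in 3 of 3 lists, by 3.10, 1.58 and 2.95 peaks per Mb. The exact two-sided sign-flip permutation test gave p = 0.25, the smallest that 3 lists allow, and 0.5 after adjustment over 4 differences, so this design cannot pass a threshold of 0.05. Without list 2 the means were 9.60 against 12.6. Peaks covered 1.31 ± 0.07% of the chromosome IV span, against 1.66 ± 0.11% elsewhere (SD, n = 3). Chromosome X had 12.6, 10.1 and 11.6 peaks per Mb, so that chromosome IV was below it in lists 1 and 3 and slightly above it in list 2. Chromosome V was similarly sparse, with 10.1, 9.90 and 9.62 peaks per Mb. Chromosome IV was below V in list 1 and above it in lists 2 and 3 (mean difference -0.06 ± 0.48, exact sign-flip permutation p = 1), a comparison chosen after the densities were seen. The density of GATC sites was not used here, and its part in the difference was not tested.

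**Figure D5:**
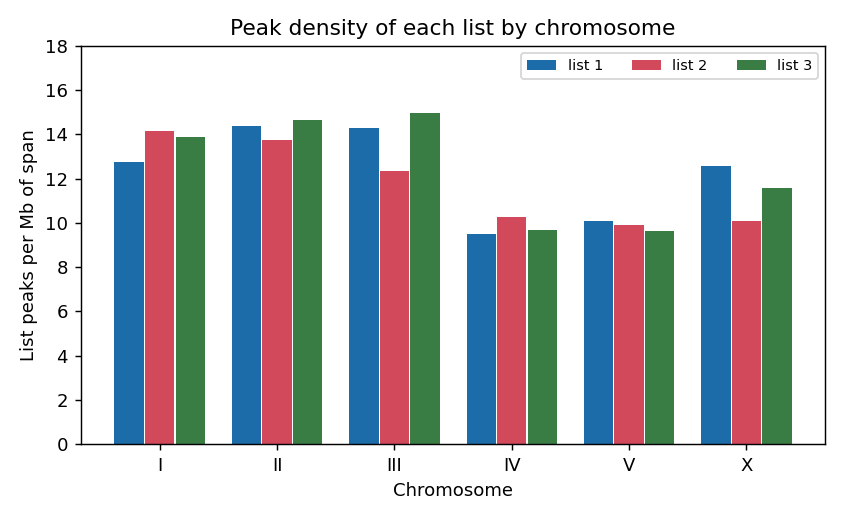
Peaks per Mb of chromosome span (y axis) on each nuclear chromosome (x axis) in lists 1, 2 and 3 (bars). Chromosome IV, at 9.51, 10.3 and 9.68, and chromosome V, at 10.1, 9.90 and 9.62, stand below chromosomes I, II and III, which lie between 12.3 and 15, while chromosome X, at 12.6, 10.1 and 11.6, is below chromosome IV in list 2.

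The combined regions were more frequent in the centre of chromosome IV than on its arms. The centre held 299 of 687 midpoints (43.5%, 95% Wilson interval 39.9 to 47.3%), near the 42.8% of the other autosomes. This corresponds to 51.4 regions per Mb in the centre and 33.4 per Mb on each arm, both of which held 194 regions. The central share was 49.8% of the 281 regions without a list peak, 37.4% of the 334 with 1 list, 50% of the 44 with 2 lists and 42.9% of the 28 with all 3, so it did not rise steadily with support. With support counted over lists 1 and 3 alone, it was 42.4% of 401 regions with neither, 43.8% of 242 with 1 and 52.3% of 44 with both (95% Wilson interval 37.9 to 66.2%), and the intervals overlapped. For the peaks of the lists, the central share on chromosome IV was 40.7 ± 9.15% (SD, n = 3), against 39.5 ± 3.09% on the other autosomes. The difference was above 0 in lists 1 and 3 and below 0 in list 2 (5.18, 4.36 and -6.08 percentage points, exact two-sided sign-flip permutation test over 3 lists, p = 1, adjusted 1). Without list 2 the central share was 46.0% on chromosome IV and 41.2% on the other autosomes.

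Median scores by part of the chromosome were 2.48, 2.33 and 2.33 in list 1 for the left arm, centre and right arm. They were 2.95, 2.60 and 2.72 in list 2, and 2.06, 2.03 and 2.13 in list 3. The centre had the lowest or joint lowest median in each list. The share of peaks found again in another list was highest in the centre in each list, at 40.0%, 44.4% and 34.2%. In list 2 it was lowest on the right arm (22.7%), where that list had the most peaks.

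Neighbouring regions lay a median of 12699.5 bp apart (686 gaps, quartiles 4439 and 31797 bp), compared with medians from 9569 bp on chromosome III to 13872 bp on X. Gaps under 1500 bp numbered 74 (10.8%). The closest neighbours, from 11587024 to 11587243 and from 11587249 to 11588704, were 5 bp apart. The left of these had no list peak and the right had a peak of 1 list. When regions less than 5 kb apart were joined, 496 groups resulted, of which 370 were single regions and 12 had 4 or more. The largest group held 7 regions from 1899085 to 1919512 on the left arm, 3 of them with peaks of 2 lists. The next largest groups held 6 regions each, from 11558029 to 11575549, which includes a region with all 3 lists, and from 17269027 to 17287290 near the right end.

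The densest 100 kb window, from 8000001 to 8100000, held 15 regions against a median of 3 over 175 windows, and regions covered 24.5% of it. It held 6, 5 and 4 peaks of lists 1, 2 and 3, and 4 of its regions had peaks of at least 2 lists. At the other end, 13 windows held no region, and 21 gaps were longer than 100 kb. The longest gap, of 292923 bp, lay on the right arm between a region that ends at 15824765 and one that starts at 16117689. Of the 5 longest gaps, 3 lay on the right arm, all beyond position 14783806, and 2 on the left arm. Among regions with at least 2 lists, the median gap was 145541 bp (71 gaps). For regions with both list 1 and list 3 it was 212137 bp (43 gaps).

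The widest region of the chromosome, from 12810201 to 12818392 (8192 bp), held 1 peak each of lists 1 and 2, with scores of 2.42 and 2.63, and none of list 3. After the region from 9667799 to 9673934 described above came the region from 4401080 to 4407050 (5971 bp) and the region from 14617412 to 14623350 (5939 bp), which scored 2.35, 3.62 and 2.59 in lists 1, 2 and 3. The fifth, from 11723035 to 11728702 (5668 bp), held 2 peaks of list 3 alone, the higher with a score of 2.97. Of these 5, 3 held peaks of all 3 lists.

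Regions without a list peak were the narrowest class by median width (924 bp), and ran from 179 to 3314 bp. The 5 widest of them ran from 7436980 to 7440293, 9265533 to 9268371, 11493906 to 11496700, 12363183 to 12366140 and 14090124 to 14093120. The last of these lay near the region from 14081277 to 14083794 with all 3 lists. Regions without a list peak lay a median of 11544 bp from the nearest region with one, and regions with a list peak lay 9253 bp from the nearest other. A neighbour with a list peak within 1500 bp was found for 31 of the 281 (11%) and for 55 of the 406 (13.5%), so most of both kinds lay further from a listed region.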

How the data were processed

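NanoDam DNA was profiled in 6 samples, 3 controls and 3 with EGL-43::GFP. Per the labels' protocols, DNA was cut with DpnI, amplified over 4 and then 19 PCR cycles and sequenced on a Nanopore MinION. The submitters' processing notes name minimap2, SAMtools and the build ce10. The peak caller is not given in the sources used here. The deposited lists give the position of each peak, the authors' score for it and its false discovery rate (FDR), which is under 0.01, the threshold in the list names. How the authors made the combined file is not stated. Both samples of a number name the same list in the labels.

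From these files, list peaks were attached to regions by an overlap of 1 bp or more, in Python (version 3.11.15, with pandas 2.3.3, scipy 1.17.1 and numpy 2.4.6). The chromosome span ends at the last base any deposited interval reaches. Lists were the replicates: chromosome IV was set against other chromosomes within each list by an exact two-sided sign-flip permutation test, adjusted by Benjamini-Hochberg over 4 differences. Nothing in the labels says that samples of a group came from separate cultures. Overlap code was tested on simulated intervals. Named were the 15 regions with all 3 lists of highest lowest score, the 5 widest regions, the 5 widest without a list peak and the closest neighbours. Gene neighbours, a list of vulval and anchor cell genes, motifs and sequences were intended but not analysed here, as no genome of the build was used. The members, rules and lists were chosen with earlier results of these data known.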

Additional observations from a re-analysis of the deposited data

How the results depend on the processing

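At an FDR of 0.001 or less, 7.42% of regions held peaks of at least 2 lists and 58.8% held none. With the upper 50% of each list by score the shares were 4.95% and 69.7%, and 1.75% held all 3. With 1 list left out, 5.53 to 6.70% held both remaining lists, fewer than the 10.5% with at least 2 of 3 but more than the 4.08% with all 3, and 55.7 to 58.4% held none. The mean shared percentage of list pairs, taken over the peaks of both lists, was 24.8 ± 2.39% (SD, 3 pairs that share lists). It was 22.0% for the upper 50% of scores, 21% with an overlap of 50% of the shorter peak and 28.9% with a distance of up to 1500 bp. Single pairs gave 22.1 to 26.7%. The central share of regions was 66.1% for the middle 50% of the span, 67.2% for 4 to 13 Mb, both wider definitions, and 49.8% for regions that no list supports (added after seeing the data). The difference in central share of list peaks from other autosomes, 1.15 points, turned to -0.86 without list 1 and -0.45 without list 3, and was 4.77 without list 2. It was 4.48 ± 5.54 points with the middle 50% as centre and 5.48 ± 8.25 with 4 to 13 Mb. At the strict FDR it was 2.75 ± 3.94 points (SD, n = 3 lists). The difference in median score turned to 0.032 at the strict FDR and ran from -0.03 to 0.005 with 1 list left out; the cause was not tested. The mean differences in density and recurrence on chromosome IV stayed below 0 under each alternative run. Density was at -1.72 peaks per Mb with the strict FDR and -2.26 to -3.02 with 1 list left out. Against chromosome V alone the density difference was -0.06 ± 0.48 (SD, n = 3), above 0 in 2 of 3 lists. With list 1, 2 or 3 left out, recurrence was counted against the 1 other list only. Its difference was then -0.998 ± 1.00, -1.38 ± 1.34 and -0.62 ± 2.37 points (SD, n = 2). Without list 3 the SD thus exceeded the difference. Gaps between regions with at least 2 lists had a median of 145541 bp, as fewer regions lie further apart. No paired analysis was possible between tagged and control samples, because the lists themselves set 1 tagged against 1 control sample. Single samples have no values here. The sign-flip tests of chromosome IV against other chromosomes were paired in another sense, as each difference was taken within 1 list. Read depth limits every list to an unknown degree.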

Other observations

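Chromosome IV carries most genes of the piRNAs of C. elegans (21U-RNAs, small RNAs that bind the Piwi protein PRG-1 in the germ line), in a cluster on either side of the centre. Windows around these clusters, rounded from textbook knowledge to 4.5 to 7 Mb and 14 to 17 Mb, were counted after the sparse part from 80 to 90% of the span had been seen, so the values are a description with no test. The window from 14 to 17 Mb held 54 combined regions, or 18 per Mb, and the window from 4.5 to 7 Mb held 78, or 31.2 per Mb. The rest of the chromosome held 555, or 46.4 per Mb. For the peaks of lists 1, 2 and 3, the right-hand window had 4.00, 7.33 and 4.33 peaks per Mb and the left-hand window 9.60, 8.40 and 4.80, compared with 10.9, 11.4 and 12.0 in the rest. Both windows were below the rest in each list, but the rest includes the dense centre. Of the 10 equal parts of the span, the first 2, outside both windows, held 48 and 51 regions. The fourth, inside the left-hand window, held 53, so the low density there was not particular to that window. The last 2, which overlap the right-hand window, held 30 and 40. The left arm as a whole had 33.4 regions per Mb, and 8.42, 10.1 and 7.91 peaks per Mb, so the left-hand window, which reaches into the centre, was above that arm in list 1 and below it in lists 2 and 3. The right arm had 33.4 regions per Mb, and 7.22, 11.3 and 7.56 peaks per Mb, and the right-hand window was below it in each list. List 2 had the most peaks of the 3 lists in the right-hand window, 22 against 12 and 13.

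These windows still held well replicated regions. Peaks of at least 2 lists lay in 6 of the 54 regions of the right-hand window (11.1%) and in 6 of the 78 of the left-hand window (7.69%), against 60 of 555 (10.8%) in the rest. All 3 lists were present in 4, 3 and 21 of these regions. The right-hand window held the closest pair of regions with all 3 lists, 14609503 to 14614944 and 14617412 to 14623350, which lay 2467 bp apart. In the first of them no base was common to the 3 lists. In the left-hand window, the same was true of the region from 4701027 to 4702781. The region from 5700526 to 5703283 there had a core of only 44 bp. Counting the regions without a common base as found in all 3 lists rests on the combined interval. Whether any piRNA gene lies in a region was not analysed here.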
